A study of Mus musculus with 9 samples.

Results

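The RNA of the intermediate spinal cord was set against the midpoint between the dorsal and the ventral cord of the same animal in 3 mice at postnatal day 6. For each probe set, the departure is the log2 value of the intermediate piece minus the mean of the dorsal and ventral log2 values of that animal. It is 0 where a gene runs in a straight line from dorsal to ventral, positive where the intermediate piece lies above that line and negative where it lies below. The departure was taken for all 34945 probe sets with a single gene symbol, of 45037 on the array. These stood for 18193 genes, each represented by its brightest probe set. Of these genes, 11623 lay more than 1 log2 unit above the lowest value of the table on at least 3 of the 9 arrays and were tested, and 6570 did not.

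All 9 arrays came from mice of the genotype GAD65-GFP, a reporter line for Gad2, which encodes the GABA-producing enzyme GAD65. The cord of each animal was divided into dorsal, intermediate and ventral tissue, giving n = 3 for every region, and the labels name no treatment. The labels speak of neither cell sorting, nor a level along the length of the cord, nor a landmark at which the pieces were cut. The values therefore describe whole pieces of tissue, in which fewer cells of a type and less RNA per cell cannot be told apart. Values were read as log2 expression, which no label states, and every fold below rests on that reading. The table has a floor at 2.15, and 36.0% to 36.3% of each array's probe sets lay within 0.01 of it. Array medians ran from 3.66 to 3.75. They were lowest in the intermediate arrays, at 3.66 to 3.68, against 3.69 to 3.70 in the ventral and 3.73 to 3.75 in the dorsal arrays. Balances of genes above and below the midpoint therefore depend on array scaling, as the counts with centred arrays in the closing section show. The genes of the enzymes and transporters that define cholinergic motor neurons, Chat, Slc18a3 and Slc5a7, stood at the floor on all 9 arrays, as did the ventral interneuron factors En1, Evx1, Evx2, Gata3, Sox14 and Dbx1, so these classes were seen only through other genes.

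The gray matter of the spinal cord is layered. The dorsal horn receives sensory fibres and is rich in peptide-expressing interneurons, the ventral horn holds the motor neurons, and the intermediate zone between them surrounds the central canal and contains many premotor, commissural and inhibitory neurons, with autonomic neurons at some levels. The central canal is lined by ependymal cells, which carry motile cilia. White matter, the meninges and the nerve roots lie at the outside of the cord, so that pieces cut from its dorsal and ventral faces and a piece cut between them can differ in how much of each they hold.

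Of the 11623 genes, 2773 (23.9%) lay above the midpoint and 2664 (22.9%) below it at an adjusted p under 0.05 (limma with the animal as a block, Benjamini-Hochberg adjustment over all 11623 genes, two-sided). The departure of the median gene was -0.0051, with quartiles at -0.18 and 0.18, and 373 genes (3.21%) were called with a departure of at least 2-fold. At any size of departure, 46.8% of the genes were called in either direction. Between pairs of regions, the intermediate piece was higher than the dorsal one in 20.3% of genes and lower in 18.2%, and higher than the ventral one in 28.8% and lower in 30.7%. The dorsal piece was higher than the ventral one in 30.4% and lower in 34.9%. A departure can arise in different shapes. In 925 genes (7.96%) the intermediate value was called above both other regions, and in 652 (5.61%) below both. By the values alone, all 3 intermediate pieces lay above all 6 others in 11.4% of genes and below all 6 in 8.25%. These shares stand beside each statement below that intermediate values did not overlap those of both other regions. The share of genes in which all 3 regions were apart from each other was not counted. A further 1634 genes (14.1%) were called above the midpoint along a called dorsal-to-ventral difference without exceeding both ends, and 1815 (15.6%) below it in the same way. A straight gradient, defined as a called dorsal-to-ventral difference of at least 1 log2 unit with the 95% interval of the departure wholly within 0.5 of 0, was met by 581 genes (5%). This definition does not depend on the call of the departure, so the 581 overlap the classes above. Of them, 342 were called neither above nor below the midpoint. Fewer animals gave fewer calls. Leaving out animal 1 gave 1624 above and 1480 below the midpoint, animal 2 gave 2405 and 1955, animal 3 gave 1410 and 1335, and intermediate array 1 alone gave 1839 and 1681.

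**Figure D1:**
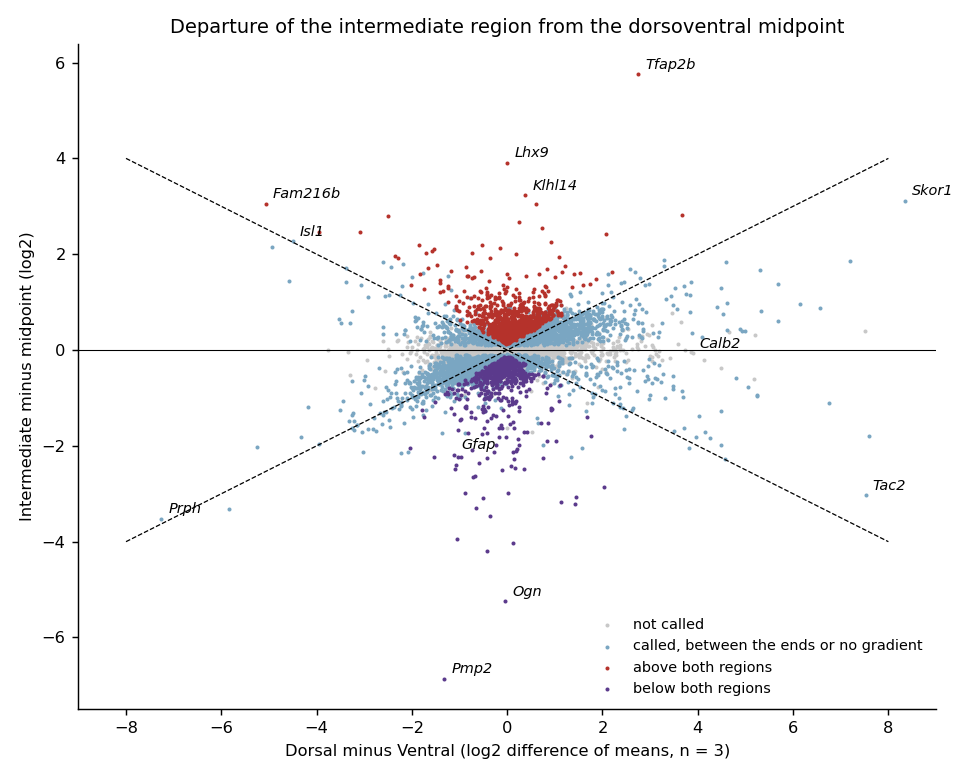
Departure of the intermediate region from the dorsoventral midpoint (y axis, log2) against the dorsal minus ventral difference of means (x axis, log2) for the 11623 genes tested, n = 3 animals per region. Dashed lines mark an intermediate value equal to the higher or the lower end; red points (925 genes) were called above both regions and purple points (652 genes) below both, with Tfap2b at the top and Pmp2 at the bottom.

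The genes that stood out most in the intermediate piece were led by transcription factors. Tfap2b, which encodes the DNA-binding factor AP-2 beta, had log2 values of 10.23, 9.95 and 10.20 in the 3 intermediate pieces, 5.44, 5.89 and 5.91 in the dorsal pieces, and 2.63, 3.17 and 3.17 in the ventral pieces. The lowest intermediate value was thus far above the highest value of either other region. Its departure was 5.76 ± 0.14 (SE of the model, as after every departure below), 54.1-fold above the midpoint, with an adjusted p of 5.81e-05. Lhx9, a LIM homeobox gene of dorsal commissural neurons, was at the floor in all 6 dorsal and ventral pieces and reached 6.47, 6.02 and 5.67 in the intermediate ones. That is at least 15-fold higher than in either other region, with an adjusted p of 0.000114. A second probe set of Lhx9 departed by 1.59. Tfap2a, which encodes AP-2 alpha, was at 7.62, 7.40 and 6.85 in the intermediate pieces against 4.80 to 5.25 dorsally and 4.25 to 4.51 ventrally (departure 2.55 ± 0.19, adjusted p = 0.000515). Neurod1, which encodes a bHLH factor of neuronal differentiation, was at 7.27, 6.93 and 7.70 against 5.45 to 5.53 and 4.42 to 4.80 (departure 2.26 ± 0.16, adjusted p = 0.0005). No value of these 4 genes in a dorsal or ventral piece reached the lowest value in an intermediate piece.

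The remaining genes furthest above both regions were no transcription factors. Klhl14, which encodes printor, a Kelch-family partner of the dystonia protein torsinA, was at 9.28, 9.07 and 9.44 in the intermediate pieces, 6.05, 6.29 and 6.34 in the dorsal pieces and 5.82, 5.71 and 6.01 in the ventral pieces. Its departure was 3.23 ± 0.08, or 9.38-fold (adjusted p = 5.81e-05), and the 3 animals gave 3.35, 3.08 and 3.26. The protein-coding gene 4930426D05Rik departed by 2.67 ± 0.13 (adjusted p = 0.000196). In the RefSeq gene table of GRCm38.p6 it lies wholly within the span of Klhl14, so that these 2 of the 10 leading genes share a locus. Amn, which encodes amnionless, a membrane protein of the receptor for vitamin B12 uptake, was at 9.02, 8.61 and 9.22 in the intermediate pieces against 5.52 to 6.35 elsewhere, a departure of 3.06 ± 0.14 (adjusted p = 0.000173).

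Cartpt, the gene of the CART peptide, was at 8.55, 8.60 and 9.26 in the intermediate pieces, at 6.35 in all 3 dorsal pieces and at 6.65 to 6.99 in the ventral pieces. Its departure was 2.19 ± 0.14 (adjusted p = 0.000362), and its 3 identical dorsal values give that region no spread. Such ties were not particular to Cartpt. Only 6709 of the 11623 tested genes had 9 distinct values with none at the floor. Identical values can make a standard error and its p-value too small. Cntn5, an adhesion molecule of the contactin family, lay at 8.19, 7.93 and 7.96 against 5.76 to 6.21 in the 6 other pieces (departure 2.00 ± 0.13, adjusted p = 0.000393). Ctxn3, a small membrane protein gene of the cortexin family, was dim everywhere and varied most between animals: its 3 departures were 1.53, 2.21 and 2.63, with intermediate values of 4.36, 4.93 and 5.46. In each of these 10 genes all 3 intermediate values lay above the 6 others, as the choice of genes by the smaller of the differences from dorsal and ventral favours. Dorsal and ventral values overlapped in some of them, such as Cntn5.

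**Figure D2:**
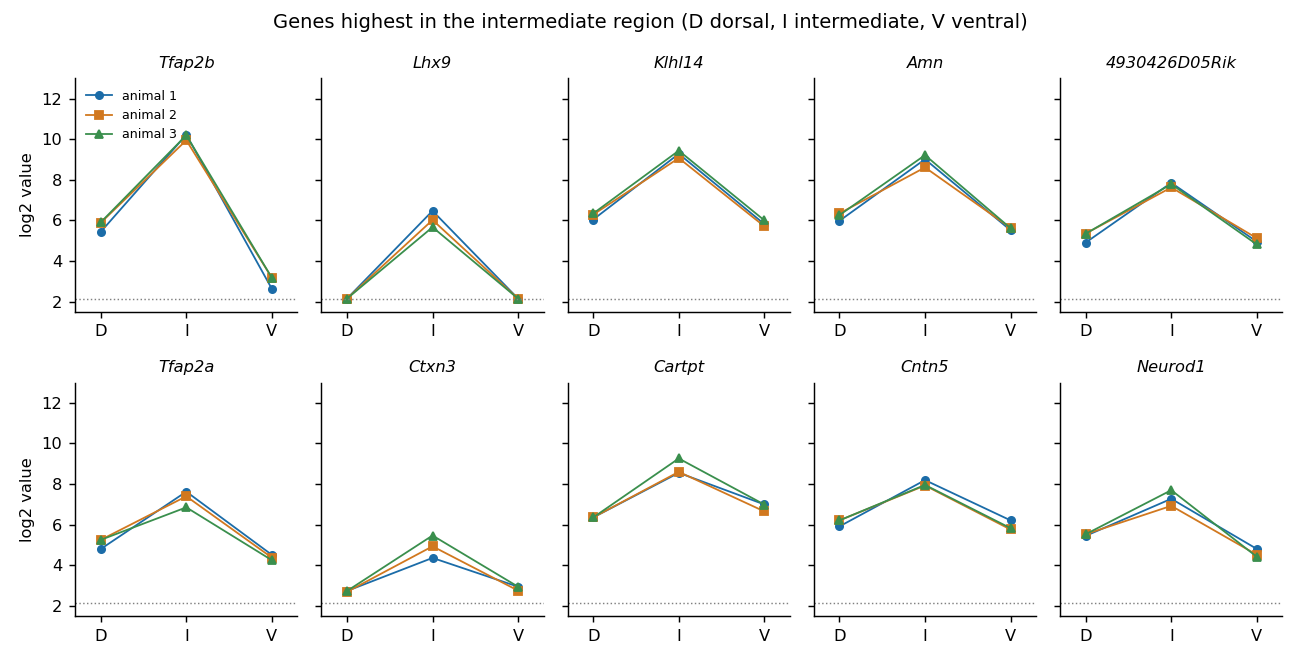
Log2 values of the 10 genes called above both regions with the largest smaller pairwise difference, by region (D dorsal, I intermediate, V ventral), with 1 line per animal and the floor of 2.15 as a dotted line. In every panel all 3 intermediate values lie above all 6 others, from Tfap2b at about 10 to Ctxn3 at 4.36 to 5.46.

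A list of transcription factors had 12 tested members. It joined AP-2 genes and factors of early dorsal commissural neurons, the cells that send axons across the midline, with other neuronal factors. Its counts are therefore no measure of commissural neurons. Of the 12 members, 7 were above the midpoint, all 7 also above both regions, with none below. The median departure of the list was 1.21, against -0.0051 over all genes. The list was drawn up around genes already known to lead in these data, so its count and median are a description and no independent evidence. Besides Tfap2b, Lhx9, Tfap2a and Neurod1, these were Neurod6, Zfhx3 and Zfhx4. Neurod6, another bHLH gene, was at 11.10, 10.93 and 11.05 in the intermediate pieces, 10.10, 10.07 and 9.96 in the dorsal pieces and 6.15 to 6.52 in the ventral pieces. The regions did not overlap, with ventral values far below both others, and the departure was 2.81 ± 0.07 (adjusted p = 6.69e-05). The zinc finger homeobox genes Zfhx3 and Zfhx4 departed by 1.35 ± 0.08 (adjusted p = 0.000272) and 1.07 ± 0.04 (adjusted p = 0.000127). The other probe sets of Zfhx3 departed by 0.44 to 1.95. The 5 members not called were Nfia, with -0.03 ± 0.04, Nfib, with -0.06 ± 0.03, Nfix, with 0.06 ± 0.04, Neurod2, with 0.05 ± 0.03, and Pou3f1, with -0.58 ± 0.41. The AP-2 genes Tfap2c and Tfap2e stood at the floor on all arrays, and Atoh1, which marks progenitors of dorsal commissural neurons, did too. The members Lhx2, Barhl1 and Barhl2 also did not pass the filter, with highest values of 6.02, 2.48 and 4.56. All 7 calls held on leaving out each animal in turn.

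Genes of inhibitory transmission formed a second group. All 8 tested genes of glycinergic neurons and glycine receptors were above the midpoint, 5 of them above both regions, with a median departure of 0.70, and so were all 6 tested genes of GABA synthesis, transport and breakdown, 3 of them above both regions, with a median of 0.47. Over all genes tested, 23.9% were above the midpoint and 22.9% below, against which these and the following counts are set. Lists and members were chosen with earlier results of these data known, so these and the following counts are a description and no independent evidence. The glycine and GABA lists share Slc32a1. On leaving out animals 1, 2 and 3, the counts above were 6, 8 and 6 for the glycine list and 4, 5 and 5 for the GABA list. With the most variable probe set per gene, the glycine list gave 7 above and 1 below, and the GABA list 6 above and 0 below. Slc6a5, the glycine transporter GlyT2 of glycinergic terminals, was at 11.31, 11.13 and 11.49 in the intermediate pieces, 9.23, 9.43 and 9.45 in the dorsal pieces and 9.88, 9.84 and 10.08 in the ventral pieces. No values overlapped, and its departure was 1.66 ± 0.07, or 3.16-fold (adjusted p = 0.000153). Gad2, the gene whose promoter drives the fluorescent reporter in these mice, was at 11.71, 11.62 and 11.73 against 10.38 to 10.49 dorsally and 9.64 to 9.85 ventrally (departure 1.59 ± 0.05, adjusted p = 9.75e-05). Slc32a1, which loads both transmitters into vesicles, departed by 1.15 ± 0.08 (adjusted p = 0.000396). The glycine receptor subunits Glra2, with 0.81 ± 0.04 (adjusted p = 0.000244), and Glra1, with 0.62 ± 0.05 (adjusted p = 0.000631), were also above both regions, and the other probe set of Glra1 gave 0.23.

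The paralogue of Gad2 ran differently. Gad1, which encodes the larger form of glutamate decarboxylase, fell along a steep gradient, from 13.94 to 14.08 dorsally through 12.80 to 13.05 in between to 10.60 to 10.87 ventrally. It lay above the log2 midpoint by 0.56 ± 0.07 (adjusted p = 0.00222), but below the mean of the dorsal and ventral values on the linear scale, by -0.21 in log2 units (adjusted p = 0.04). Which side of the midpoint Gad1 took therefore depended on the scale, whereas Gad2 stood 1.55 above the linear midpoint. The other probe set of Gad1 departed by 0.28. Slc6a9, the glial glycine transporter GlyT1, was called with 0.24 ± 0.06 (adjusted p = 0.0194), but not without animal 1 (adjusted p = 0.159), without animal 3 (adjusted p = 0.0976) or on the linear scale (0.06, adjusted p = 0.474), and its other probe set gave -0.08.

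Genes of synapses and membrane excitability were shifted the same way. Of 25 tested genes of synaptic vesicles and release, 21 were above the midpoint, where 23.9% of all genes lay, and 2 below, with a median departure of 0.55. Syt2, a fast calcium sensor of vesicle release, was at 10.72, 10.53 and 10.88 in the intermediate pieces, 8.27, 8.11 and 8.66 in the dorsal pieces and 10.44, 10.25 and 10.39 in the ventral pieces, so that the intermediate and ventral values lay close together and the dorsal ones far below. Its departure was 1.36 ± 0.08 (adjusted p = 0.000297). Vamp1, with 0.88 ± 0.08 (adjusted p = 0.000749), and Cplx1, with 0.78 ± 0.10 (adjusted p = 0.00222), which act in the same release machinery, shared that ventral-leaning profile and were above both regions. Rims1, a scaffold of the active zone, leaned dorsally and was above both as well (0.93 ± 0.07, adjusted p = 0.000512). Syt1, the sensor related to Syt2, fell from 12.65 dorsally to 9.74 ventrally, with 0.80 ± 0.05 above the log2 midpoint (adjusted p = 0.000415) but 0.17 above the linear one (adjusted p = 0.106), and its other probe sets gave 0.41 to 0.83. The 2 members below were Rims2 (-0.39 ± 0.03, adjusted p = 0.000683, with other probe sets down to -0.45 and up to about 0) and Unc13c (-0.16 ± 0.05, adjusted p = 0.0394, or 0.101 without animal 1 and 0.0987 without animal 2 and 0.201 without animal 3).

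The contactins and their partners followed. Of 13 tested adhesion genes of inhibitory and sensory contacts, 12 were above the midpoint and 1 below, with a median of 0.62, and 8 were above both regions, where 7.96% of all genes lay. Cntn5 led them, followed by Cntnap4 (1.05 ± 0.09, adjusted p = 0.000747), Cntn4 (0.97 ± 0.06, adjusted p = 0.000298, with 1.47 for its other probe set) and Cntn6 (0.85 ± 0.06, adjusted p = 0.000452). The member below was Nfasc, the neurofascin gene of nodes and myelinating glia, which was higher ventrally (-0.59 ± 0.09, adjusted p = 0.00333, or 0.0553 without animal 1), with -0.65 to -0.37 for its other probe sets. Without animal 1 the list's count above the midpoint was 7. The list was chosen with earlier results of these data known. It holds Cntn5, a leading gene above both regions, so its counts are no independent evidence. Voltage-gated potassium channel genes gave 15 above and 1 below of 22, against 23.9% and 22.9% of all genes, with a median of 0.34. Those of fast-firing neurons, Kcnc1 (0.74 ± 0.09, adjusted p = 0.00208) and Kcnc4 (0.76 ± 0.09, adjusted p = 0.00201), and the silent subunit Kcns2 (0.94 ± 0.10, adjusted p = 0.00124) were above both regions, while other probe sets of Kcnc4 and Kcnc1 gave from 0.08 to 0.49. Kcnc2 of the same subfamily ran straight, at 10.63, 8.77 and 6.90 from dorsal to ventral. Without animal 3 the count of channel genes above the midpoint was 9, and that below was 0, 2 and 0 without animals 1, 2 and 3.

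Ionotropic glutamate receptor genes gave 10 above and 0 below of 13, with a median of 0.38, and 6 above without animal 1. Grik1, a kainate receptor subunit, departed most, with 0.73 ± 0.03 (adjusted p = 0.000164), followed by the NMDA receptor subunit Grin2d with 0.61 ± 0.05 (adjusted p = 0.000568). The widely expressed AMPA receptor subunit Gria2 sat on the midpoint of a steep gradient instead (-0.05 ± 0.06). GABA-A receptor subunits gave 5 above and 1 below of 8 (median 0.30), led by Gabrb2 with 0.67 ± 0.07 (adjusted p = 0.00133). Without animal 3 the GABA-A count above the midpoint was 3, and that below was 0, 2 and 0 without animals 1, 2 and 3. Genes of vesicular glutamate transport and glutamate supply gave 4 above and 1 below of 7 (median 0.22), or 2 above without animal 1 and 2 above without animal 3. Their count below was 0 on leaving out each animal in turn. Slc17a6, the vesicular glutamate transporter VGLUT2, was at 13.64 dorsally, 13.62 in between and 12.06 ventrally (departure 0.77 ± 0.06, adjusted p = 0.000516).

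Most genes on the marker lists of the meninges and of myelin lay below the midpoint. The summed log2 level of 21 meningeal and fibroblast genes was 13.5 to 13.7 in the intermediate pieces, 14.3 to 15.2 in the dorsal pieces and 14.8 to 15.2 in the ventral pieces. The summed level of 28 genes of oligodendrocytes and myelin was 17.0 to 17.3 in the intermediate pieces, overlapping the dorsal range of 17.0 to 17.2, and 18.0 to 18.1 in the ventral pieces. The part of these markers in the departures of the neuronal groups was not tested.

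Many genes of ependymal cells and motile cilia also lay above the midpoint. Of 25 tested members, 18 were above and 3 below, against 23.9% and 22.9% of all genes, with a median departure of 0.82, and 12 were above both regions. The summed log2 level of the 25 genes, which the brightest members set, was 12.87 to 13.0015 in the intermediate pieces, 12.69 to 12.97 in the dorsal pieces and 13.19 to 13.29 in the ventral pieces. By that sum the intermediate pieces overlapped the dorsal ones and stood below the ventral ones, so the count and median do not hold for the list's total level. The count below was 1 without animal 1. The leading members were also high ventrally and low dorsally. Fam216b, a gene of ciliated cells, was at 8.30, 8.35 and 8.49 in the intermediate pieces, 7.98, 7.75 and 7.86 in the ventral pieces and 2.53 to 2.96 in the dorsal pieces (departure 3.05 ± 0.11, adjusted p = 0.000114). Dynlrb2, a dynein light chain, ran at 7.65, 7.81 and 8.20, against 7.30 to 7.46 ventrally and 3.09 to 3.67 dorsally (2.45 ± 0.13, adjusted p = 0.000232). Foxj1, the factor that switches on the motile cilia programme, was at 5.86, 6.37 and 6.31, against 5.39 to 5.53 and 3.99 to 4.05 (1.45 ± 0.09, adjusted p = 0.000378). In all 3 genes the 3 regions did not overlap, with a large step between dorsal and intermediate and a small one between intermediate and ventral.

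Enkur, a sperm and cilia calcium-signalling adaptor (1.96 ± 0.14, adjusted p = 0.000452), Ak7, an adenylate kinase of cilia (1.71 ± 0.05, adjusted p = 8.08e-05), and Cfap54, a gene of the axoneme (1.26 ± 0.08, adjusted p = 0.000305), were above both regions as well. Cfap54 had a different profile, low at both ends, with 4.46 dorsally, 5.75 in between and 4.52 ventrally. Ccdc153 was at 5.01, 5.52 and 5.75 in the intermediate pieces and at 4.73 in all 3 ventral pieces, and at the floor in 2 of the 3 dorsal pieces (1.79 ± 0.22, adjusted p = 0.00197). Many cilia genes were dim. A further 16 members on the array did not pass the filter, and 6 members above the midpoint had a mean of at least 6.

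Cilia genes are controlled by factors of the RFX family, which bind an X-box whose core is GTTGCC, so the 250 bases upstream of the RefSeq start were searched for that string on both strands. Of the 18 cilia genes above the midpoint, 13 had an entry, and 6 of these 13 held GTTGCC (Ccdc153, Dynlrb2, Enkur, Mlf1, Pifo and Tekt1), against 11.8% of 27025 genes. Of the genes with a string, Pifo was not called without animal 1 (adjusted p = 0.0553), nor Tekt1 without animal 2 (adjusted p = 0.113) or animal 3 (adjusted p = 0.142). The longer form GTTGCCNNG, which contains the shorter one, was found in 4 of the 13 and in 4.71% of all. The X-box palindrome was searched only with a spacer of fixed length between its arms. It was searched with 1 free base in the second arm, and with a free base in each arm. These forms were found in Pifo alone of the 13, and in 0.292% and 0.444% of all. Palindromes with other spacers or other bases were not searched, so these counts do not show which genes lack an X-box. The strings were chosen after several had been looked at. A match is a description of these letters and not a binding site. The windows below are 100 bases each (RefSeq, GRCm38.p6, written 5′ to 3′ on the gene's strand), shown for the 4 genes with the longer form, with the core in capitals, as its reverse complement where it lies on the other strand. They lie at chr9:44240479-44240578 on the plus strand for Ccdc153, chr8:116504915-116505014 on the plus strand for Dynlrb2, chr2:21205366-21205465 on the minus strand for Enkur and chr3:106001498-106001597 on the minus strand for Pifo.
Ccdc153: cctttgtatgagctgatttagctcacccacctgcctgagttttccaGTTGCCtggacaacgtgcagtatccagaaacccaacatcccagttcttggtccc
Dynlrb2: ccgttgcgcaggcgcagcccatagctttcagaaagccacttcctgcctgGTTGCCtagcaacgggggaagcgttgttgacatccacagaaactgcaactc
Enkur: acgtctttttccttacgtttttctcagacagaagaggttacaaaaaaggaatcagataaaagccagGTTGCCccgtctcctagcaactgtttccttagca
Pifo: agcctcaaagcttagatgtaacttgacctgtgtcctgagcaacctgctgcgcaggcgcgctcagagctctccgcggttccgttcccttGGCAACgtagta

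The same search was made for strings of AP-2 and bHLH factors in the 10 leading genes above both regions, 7 of which had an entry. GCCNNNGGC, an AP-2 string found in 15.4% of all genes, was in none of the 7, and the AP-2 string with a spacer of 4 bases, found in 14.0% of all, was in Tfap2a only. The E-box strings CAGCTG (14.7% of all) and CATATG (3.98% of all) were found in Amn and in Neurod1. Of the 13 cilia genes, GCCNNNGGC was in Ak7 and Cfap126, the form with the longer spacer in Cfap126 and Rsph9, and neither E-box string in any, and Rsph9 was not called without animal 3 (adjusted p = 0.0595).

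Hox genes, which pattern the body axis, gave 10 above and 4 below of 21, with a median at 0 to within 0.01 in a list whose members ran in opposite directions. The count below was 2 without animal 2, without animal 3, without intermediate array 2 or without intermediate array 3. Hoxd10 was at 12.07, 11.89 and 11.63 in the intermediate pieces, 9.47, 9.37 and 9.19 in the dorsal pieces and 10.84, 10.90 and 10.74 in the ventral pieces (1.77 ± 0.06, adjusted p = 9.75e-05). Hoxc10 gave 1.65 ± 0.08 (adjusted p = 0.000182) and Hoxd9 0.96 ± 0.05 (adjusted p = 0.000217), both above both regions. Hoxa10, of the same paralogue group as Hoxd10 and Hoxc10, declined evenly from 10.57 to 9.85 with a departure of 0.00 ± 0.04. Hoxb9 fell steeply from 10.78 dorsally to 6.17 ventrally and lay above the log2 midpoint (0.97 ± 0.09, adjusted p = 0.000863) but not above the linear one (-0.39, adjusted p = 0.0657).

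The 8 genes that fell furthest below both regions were Pmp2 and Pmp22, of peripheral myelin, Ogn, Dcn, Col1a1 and Col3a1, of the extracellular matrix, Mrc1, a macrophage receptor gene, and Smco3. Pmp2, a fatty acid-binding protein of peripheral myelin, was at 2.15, 2.94 and 2.28 in the intermediate pieces, with 1 value at the floor, at 10.29, 8.22 and 7.45 in the dorsal pieces and at 10.31, 10.03 and 9.56 in the ventral pieces. Its departure was -6.86 ± 0.51 (adjusted p = 0.00052), and since all intermediate values lay within 1 log2 unit of the floor, this is the distance between measured values. Pmp22, a structural protein of the same sheath, was at 8.73, 9.37 and 8.30 against 12.03 to 13.93 in the 6 others (-4.02 ± 0.31, adjusted p = 0.000557). Dorsal values of all 8 genes were highest in animal 1. Smco3, a small membrane protein gene, gave -3.46 ± 0.48 (adjusted p = 0.00284).

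Of 21 tested meningeal and fibroblast genes, 17 were below the midpoint, where 22.9% of all genes lay, and none above, 16 of them below both regions, and the median departure was -1.64. By animal, the list's median departure was -2.24, -1.55 and -1.68 in animals 1, 2 and 3. Ogn, which encodes osteoglycin of the extracellular matrix, was at 3.24, 4.04 and 3.47 in the intermediate pieces, 10.03, 8.16 and 8.20 in the dorsal pieces and 9.24, 9.02 and 8.26 in the ventral pieces (-5.24 ± 0.42, adjusted p = 0.000609). A second probe set of Ogn gave -0.86. Dcn, the decorin gene, was at 5.49, 5.99 and 5.06 against 8.79 to 10.30 in the others (-4.20 ± 0.33, adjusted p = 0.000568). The collagens Col1a1, with -3.94 ± 0.37 (adjusted p = 0.000858), and Col3a1, with -2.98 ± 0.27 (adjusted p = 0.000756), followed. Foxc1, a transcription factor of the meninges, gave -1.23 ± 0.14 (adjusted p = 0.0015). The 4 members not called included Ptgds (-1.63 ± 1.27, with -0.08 for its other probe set), Foxd1 (-0.46 ± 0.18) and Pdgfra (0.05 ± 0.03), which glia also make.

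Genes of Schwann cells and nerve roots gave 8 below and 1 above of 13, against 22.9% and 23.9% of all genes, with a median of -0.72, and 4 of the 8 were below both regions. By animal, the list's median departure was -1.35, -0.64 and -0.57 in animals 1, 2 and 3. Egr2, the factor that drives peripheral myelination and also an immediate early gene, was at 4.84, 4.33 and 4.46 in the intermediate pieces, 10.53, 8.03 and 6.88 in the dorsal pieces and 6.88 to 7.38 in the ventral pieces. Its departure was -3.22 ± 0.55 (adjusted p = 0.00575), with an adjusted p of 0.064 without animal 2, and dorsal animal 1 stood well above the others. Its other probe set gave -1.98. Cdh19, a cadherin of Schwann cell precursors, gave -2.16 ± 0.41 (adjusted p = 0.00789, or 0.0684 without animal 3) and was high ventrally. Mbp, the gene of myelin basic protein, had regional means of 15.94 to 15.97, near the top of the table at 16.27, with -0.03 ± 0.03, while its other probe sets departed by -1.21 to 0.16.

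All 15 tested genes of microglia and macrophages were below the midpoint, against 22.9% of all genes, 14 of them below both regions, with a median of -0.73 (9 of 15 without animal 3). Mrc1, the mannose receptor of macrophages at brain borders, was at 3.65, 3.99 and 3.72 in the intermediate pieces against 5.82 to 7.38 dorsally and 7.02 to 7.69 ventrally (-3.29 ± 0.34, adjusted p = 0.00111). Pf4, another gene of border macrophages, gave -3.09 ± 0.39 (adjusted p = 0.002). Genes that parenchymal microglia express were lowered less: Csf1r, the receptor on which these cells depend, gave -0.64 ± 0.07 (adjusted p = 0.00118), Cx3cr1 -0.44 ± 0.06 (adjusted p = 0.00235) and Aif1 -0.37 ± 0.06 (adjusted p = 0.0041, or 0.0642 without animal 3). The difference between border and parenchymal genes was not tested. Tmem119, Trem2 and Itgam did not pass the filter. Endothelial and mural genes gave 12 below and 0 above of 22 (median -0.27), 4 below without animal 1 and 7 without animal 3 or without intermediate array 1. Vwf, a clotting factor of endothelium, was at 8.48 dorsally, 7.71 in between and 8.93 ventrally (adjusted p of the departure = 0.00276). Of the erythroid genes, Slc4a1 and Tfrc were tested and neither was called, with -0.28 ± 0.19 and 0.07 ± 0.04.

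**Figure D3:**
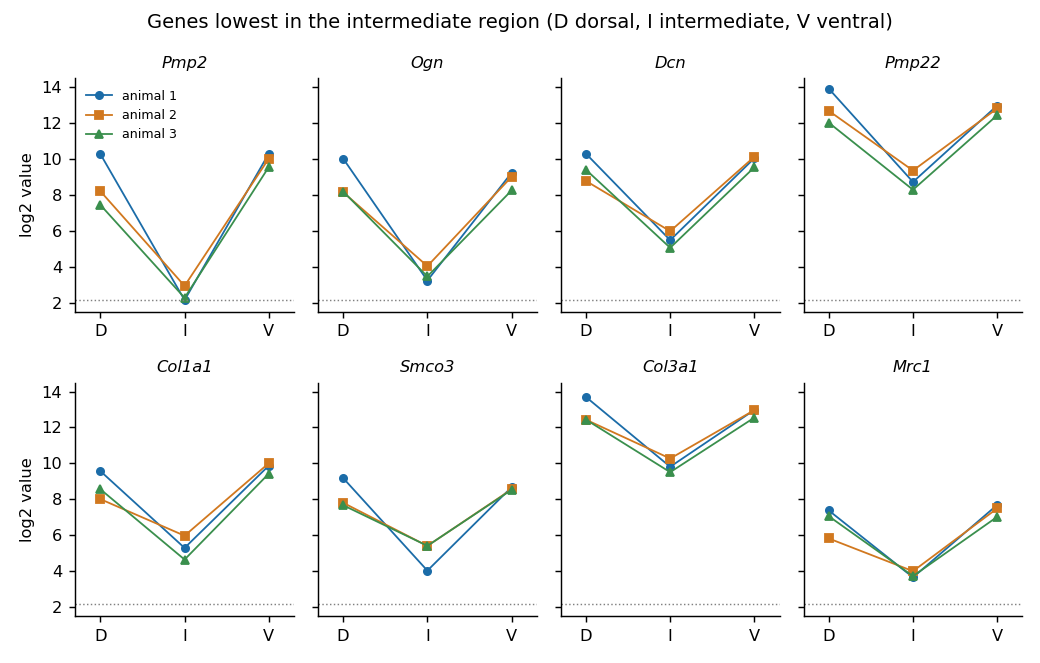
Log2 values of the 8 genes called below both regions with the largest smaller pairwise difference, by region (D dorsal, I intermediate, V ventral), with 1 line per animal and the floor of 2.15 as a dotted line. All 3 intermediate values lie below all 6 others in each panel, and dorsal values of Pmp2 spread from 7.45 to 10.29.

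Other groups below the midpoint were bent gradients and not local lows. Of 28 tested genes of oligodendrocytes and myelin, 22 were below and 1 above, with a median departure of -0.64, but 21 of the 22 lay between the regions: the intermediate piece resembled the dorsal one and the ventral piece stood apart. Mog, a protein of the outer myelin surface, was at 9.84, 10.19 and 10.72 in the intermediate pieces, 10.09, 9.56 and 10.31 in the dorsal pieces and 13.18, 13.22 and 13.33 in the ventral pieces. The intermediate and dorsal values overlapped, and the departure was -1.36 ± 0.17 (adjusted p = 0.00183). Ermn, a cytoskeletal protein of myelinating cells, gave -1.65 ± 0.09 (adjusted p = 0.000285), Mag, a glycoprotein of the inner myelin layer, -0.89 ± 0.12 (adjusted p = 0.00253), and Myrf, a factor that drives myelination, -0.64 ± 0.10 (adjusted p = 0.00378, or 0.0506 without animal 1). Apod, a lipid carrier, was the member below both regions (-2.24 ± 0.32, adjusted p = 0.00319). Genes of the precursor stage ran straight or were not called: Olig2 gave -0.14 ± 0.06, Olig1 0.01 ± 0.04 and Pdgfra 0.05 ± 0.03. The member above was Cntn2, which is also on the adhesion list (0.62 ± 0.14, adjusted p = 0.0146, or 0.0668 without animal 1 and 0.082 without animal 3, and 0.31 for its other probe set).

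Cell cycle genes gave 20 below and 1 above of 27, with a median of -0.37, and 19 of the 20 lay between the regions. Mki67, a marker of cycling cells, was at 8.79 dorsally, 8.87 in between and 9.94 ventrally (-0.49 ± 0.09, adjusted p = 0.00661, or 0.071 without animal 3), and Top2a, a topoisomerase of dividing cells, at 8.42, 8.45 and 9.53 (-0.52 ± 0.06, adjusted p = 0.00189), with -0.16 for the other probe set of Top2a. The count below was 10 without animal 1, 7 without animal 3 and 13 without intermediate array 1. Genes of cholesterol synthesis gave 13 below and 0 above of 19, with a median of -0.25, 12 of them between the regions. Fdps, an enzyme of the mevalonate pathway, was at 10.40 dorsally, 10.38 in between and 11.55 ventrally (-0.60 ± 0.09, adjusted p = 0.00323). Their count below was 8 without animal 1, 7 without animal 2, 7 without animal 3 and 6 without intermediate array 1. In all these lists the intermediate pieces matched the dorsal ones more closely than the ventral ones.

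Astrocyte genes gave 5 above and 7 below of 22, with a median of -0.0011, and these shares are near those over all genes (23.9% and 22.9%). Gfap, the filament protein of fibrous astrocytes, stood apart from the list at 9.02, 9.42 and 9.59 in the intermediate pieces, 11.12, 10.78 and 11.02 in the dorsal pieces and 12.03, 12.15 and 12.08 in the ventral pieces (-2.19 ± 0.13, adjusted p = 0.000313). The next in size was Ntsr2, a neurotensin receptor, with -0.38 ± 0.08 (adjusted p = 0.0135, or 0.106 without animal 1 and 0.0635 without animal 2). Aldoc, an enzyme of astrocyte glycolysis, was above with 0.30 ± 0.05 (adjusted p = 0.00405, or 0.0536 without animal 3), and Aqp4, the water channel of astrocyte endfeet, below with -0.31 ± 0.05 (adjusted p = 0.00341, and -0.88 to -0.76 for its other probe sets). The counts above the midpoint were 2, 3 and 1 without animals 1, 2 and 3, 2 without intermediate array 1, 3 without intermediate array 2 and 3 without intermediate array 3. The count below was 4 without animal 1, 4 without intermediate array 1 and 4 without intermediate array 2.

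**Figure D4:**
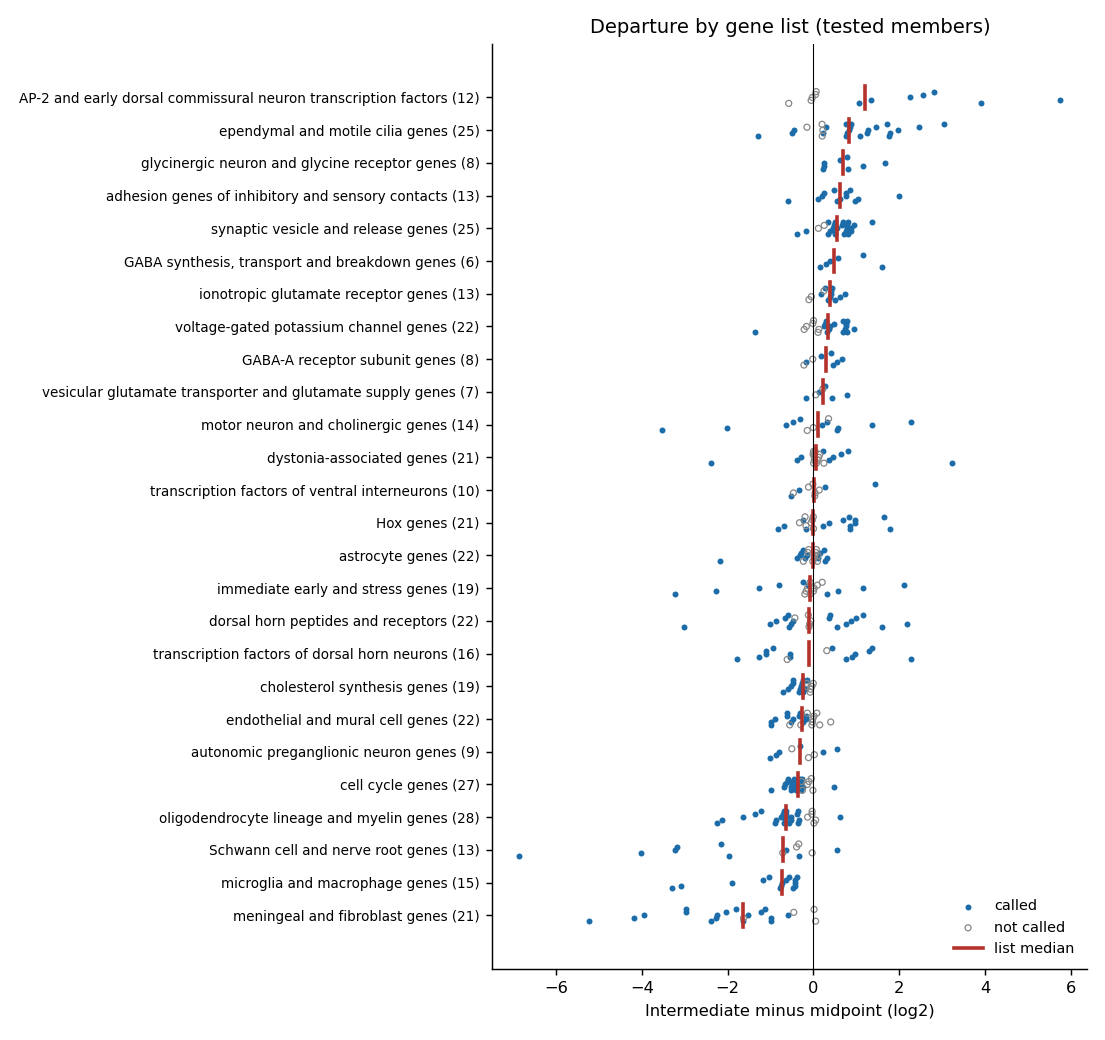
Departure of the tested members of 26 gene lists (x axis, log2), with lists ordered by median and the number of tested members in parentheses; filled points were called at an adjusted p under 0.05, open points were not, and red bars are list medians. Medians run from -1.64 for meningeal and fibroblast genes to 1.21 for the list headed by AP-2 genes, which also holds other neuronal transcription factors. The median of all 11623 genes was -0.0051.

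The position of the intermediate piece along gradients was described in 1799 genes with a called dorsal-to-ventral difference of at least 1 log2 unit, 896 higher dorsally and 903 higher ventrally. Set at 0 for the ventral and 1 for the dorsal value, the median position was 0.73 on the log2 scale, nearer to the dorsal end. The medians of the 3 animals were 0.785, 0.662 and 0.712, a mean of 0.72 ± 0.062 (SD, n = 3). It was 0.691 for genes higher dorsally and 0.768 for genes higher ventrally, so in both directions the intermediate piece lay on the dorsal side. As a result 648 of the 896 genes higher dorsally (72.3%) lay above the midpoint, and 229 of the 903 higher ventrally (25.4%). These shares count estimates and not calls.

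The log2 midpoint is the geometric mean of the ends, and equal parts of dorsal and ventral tissue would give the mean of linear values, which is never lower. Against that linear midpoint, 2073 genes (17.8%) were called above and 2794 (24%) below. Of the 2773 genes above the log2 midpoint, 2034 were also above the linear one, 28 were below it and 711 were not called. Of the 2664 below the log2 midpoint, 2363 were below the linear one and 301 were not called. A value above or below both ends is on the same side of both midpoints by construction, and 910 of the 925 genes above both regions and 646 of the 652 below both were also called on the linear scale. Of the 1634 genes between the ends and above the log2 midpoint, 1045 were. On the linear scale the mean position over animals was 0.554 ± 0.061 (SD, n = 3) for genes higher dorsally and 0.841 ± 0.054 (SD, n = 3) for genes higher ventrally.

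Skor1, a corepressor of dorsal horn neurons, shows the difference. It was at 10.98, 11.34 and 11.23 dorsally, 10.18, 10.22 and 9.98 in between and 2.56, 2.96 and 2.98 ventrally. It lay 3.12 ± 0.10 above the log2 midpoint (adjusted p = 9.6e-05) and at -0.06 from the linear one. Ipcef1, a regulator of the small GTPase ARF6, was 1.86 ± 0.19 above the log2 midpoint (adjusted p = 0.00109) and -0.75 below the linear one (adjusted p = 0.00458). Zmat4, a zinc finger gene that was as high in between as dorsally, lay above both midpoints (1.87 ± 0.11 on the log2 scale, adjusted p = 0.000278, and 1.08 on the linear scale), with 0.20 to 0.96 on the log2 scale for its other probe sets. Arhgap15, a Rac regulator, gave 1.83 ± 0.18 (adjusted p = 0.000973), but 0.48 on the linear scale with an adjusted p of 0.0643, and its other probe set gave 0.39.

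Genes low only in the dorsal piece gave the opposite slope. Isl1, a LIM homeobox gene of motor neurons and some dorsal horn neurons, was at 7.47, 6.67 and 6.67 in the intermediate pieces, 7.21, 7.05 and 6.50 in the ventral pieces and 2.15 to 2.76 in the dorsal pieces. Intermediate and ventral values overlapped (2.27 ± 0.19 above the log2 midpoint, adjusted p = 0.000631, and 0.96 above the linear one). Tm4sf1, a membrane protein gene of endothelium, gave 2.15 ± 0.05 (adjusted p = 5.81e-05), and Syt17, a synaptotagmin-like gene, 1.85 ± 0.18 (adjusted p = 0.000944).

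Genes high in only the dorsal or the ventral piece bent below the midpoint. Prph, the peripherin gene of motor and sensory neurons, was at the floor in all dorsal pieces, at 2.25, 2.32 and 2.19 in between and at 9.53, 9.56 and 9.13 ventrally. Its departure was -3.52 ± 0.08 (adjusted p = 5.81e-05), and since the intermediate values too are near the floor, this is only the distance between measured values. Its other probe set gave -0.01. Fads2b, a gene related to fatty acid desaturases, was at 9.95 to 10.22 ventrally and at 3.38 to 4.25 elsewhere (-3.33 ± 0.17, adjusted p = 0.000217). Tac2, the neurokinin B gene, was at 9.52, 9.90 and 9.58 dorsally, at 2.15, 4.35 and 2.15 in between and at the floor ventrally, so that 5 of these 6 values are at the floor and the distance of -3.02 ± 0.40 (adjusted p = 0.00245) is only the one between measured values. Lemd1 (-1.99 ± 0.07, adjusted p = 0.000114) and the chromatin protein gene Hmga2 (-2.04 ± 0.14, adjusted p = 0.000415) were likewise higher in the dorsal piece than in the others, with a weaker departure for the other probe sets of Hmga2, from -1.53 upward. Lemd1 was near the floor outside the dorsal pieces, at 2.21 to 2.56 in between and 2.15 to 2.16 ventrally. Its departure is therefore only the distance between measured values. Hspb8, a small heat shock protein gene, was high ventrally (-2.14 ± 0.17, adjusted p = 0.000568), with -0.77 for its other probe set.

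Straight gradients were found in both directions. Calb2, the calretinin gene of dorsal horn interneurons, was at 11.47, 11.94 and 11.54 dorsally, 9.70, 9.76 and 9.47 in between and 7.80, 7.85 and 7.64 ventrally, with a departure of -0.06 ± 0.08. Each region stood clear of the next, and the share of all genes of which this holds was not counted. Camk2a, a calcium-dependent kinase of excitatory synapses, fell from 7.57 to 7.88 through 5.23 to 5.77 to 3.53 to 3.70 (-0.21 ± 0.09), though its other probe sets gave -0.99 to -0.77. Kcnip2, a potassium channel-binding calcium sensor, fell from 9.24 through 7.47 to 5.16 and was called above by 0.27 ± 0.06 (adjusted p = 0.0164), with the interval still inside the margin. This call was lost without animal 1 (adjusted p = 0.0747) and without animal 3 (adjusted p = 0.0976). In the other direction, Pappa, a protease that frees insulin-like growth factors, ran from 4.04 dorsally through 5.91 to 7.80 ventrally (-0.01 ± 0.11), but its other probe set gave -0.43. The potassium channel subunit gene Kcne1l (-0.05 ± 0.17) and the sulphate-activating enzyme gene Papss2 (0.02 ± 0.13) were also higher ventrally. A gradient with a log2 departure of exactly 0 lies below the linear midpoint by construction, and Calb2, near 0 on the log2 scale, departed from the linear midpoint by -1.10.

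**Figure D5:**
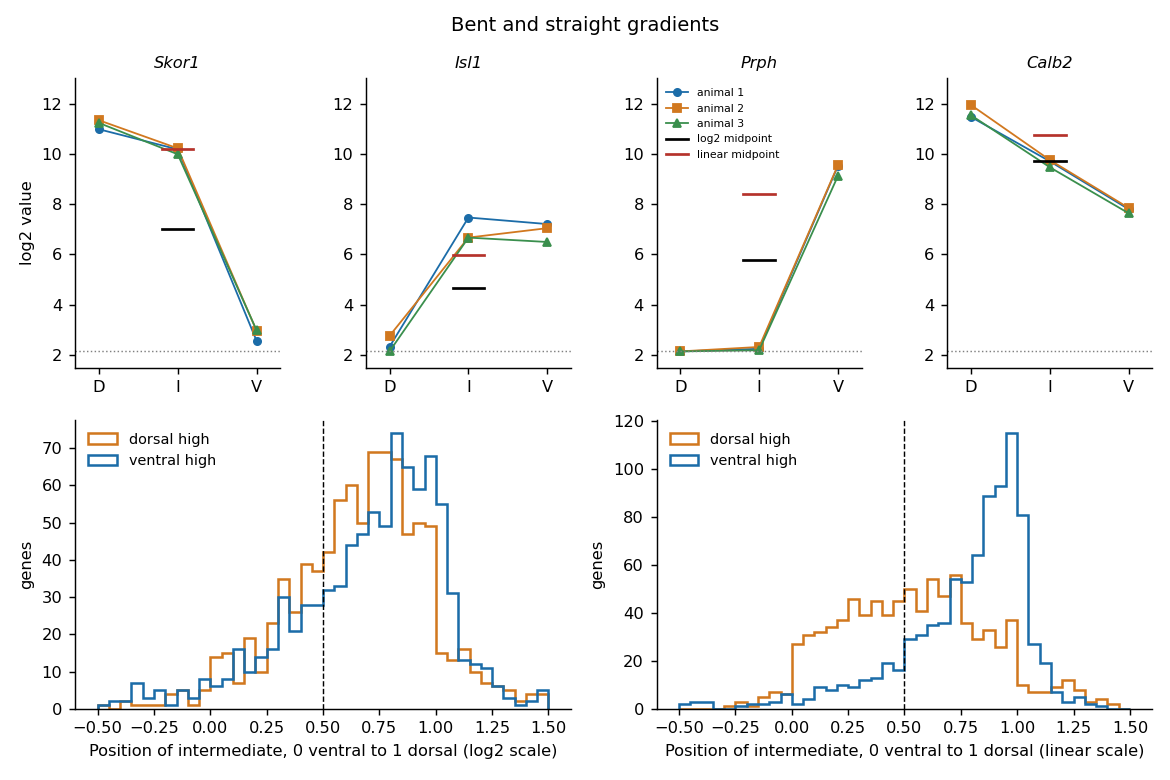
Top, log2 values of Skor1, Isl1, Prph and Calb2 by region (D dorsal, I intermediate, V ventral), with 1 line per animal, the log2 midpoint in black, the linear midpoint in red and the floor dotted. Bottom, number of genes by position of the intermediate value (0 ventral, 1 dorsal) on the log2 and linear scales for 1799 gradients, of which 35 and 62 lie outside the axis; the dashed line marks the midpoint, and most genes lie to its right, on the dorsal side, except dorsal-high genes on the linear scale, which spread on both sides.

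The classes of neurons that define the dorsal and ventral horns were split. Of 16 tested transcription factors of dorsal horn neurons, 7 were above and 7 below (median -0.11), or 4 and 10 against the linear midpoint. Zic1, a zinc finger factor, was at 13.72 dorsally and 13.63 in between and fell to 10.82 ventrally (1.36 ± 0.10, adjusted p = 0.000523). Pou4f1, a POU factor of dorsal neurons, gave 1.30 ± 0.18 (adjusted p = 0.00298) and -0.01 on the linear scale, with 1.98 on the log2 scale for its other probe set. Lmx1b, a factor of superficial excitatory neurons, dropped sooner and gave -0.94 ± 0.16 (adjusted p = 0.00604, or 0.0562 without animal 2). Maf, which is expressed by deeper dorsal neurons, gave -1.11 ± 0.09 (adjusted p = 0.000592), and its other probe sets -1.50 to -0.72. Without animal 1 the count below was 4.

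Of 22 dorsal horn peptide and receptor genes, 9 were above and 8 below (median -0.097), but 3 and 15 on the linear scale, and without animal 1 the log2 counts were 5 and 5. Cartpt and Crh, the gene of corticotropin-releasing hormone, were the members above both regions. Crh was at 9.75, 9.35 and 9.09 in between, 8.37 to 8.68 dorsally and 6.99 to 7.25 ventrally (1.59 ± 0.13, adjusted p = 0.000631). Tac1, the substance P gene, was at 12.51, 11.76 and 8.69 from dorsal to ventral (1.16 ± 0.06, adjusted p = 0.000197, but 0.14 with an adjusted p of 0.202 on the linear scale). Sst, the somatostatin gene, fell sooner, at 11.97, 9.46 and 8.99 (-1.02 ± 0.12, adjusted p = 0.00154).

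Motor neuron and cholinergic genes gave 6 above and 5 below of 14 (median 0.096), all of them between the regions, with 3 above without animal 1, 3 above and 3 below without animal 2, 2 above without intermediate array 1 and 3 above without intermediate array 3. Calcb, a calcitonin gene-related peptide gene, was at 10.08 ventrally and at 4.83 and 5.43 in the others (-2.03 ± 0.15, adjusted p = 0.000492). Esrrg, a nuclear receptor of gamma motor neurons, was nearly as high in between as ventrally, at 9.83 and 10.01 (1.35 ± 0.07, adjusted p = 0.000244, with 0.34 for its other probe set). Of 9 tested genes of autonomic preganglionic neurons, 2 were above and 4 below (median -0.31). Nos1, the nitric oxide synthase of these cells, was called above both regions. Its departure from the midpoint was 0.23 ± 0.04 (adjusted p = 0.009, or 0.0658 without animal 2 and 0.0873 without animal 3, and 0.62 for its other probe set). The list's count above fell to 1 without animal 1, 1 without animal 2, 0 without animal 3, and 1 without intermediate array 1 or 3. Of 10 tested ventral interneuron factors, 2 were above and 2 below (median 0.0078), near the 23.9% and 22.9% of all genes, and on leaving out animals 1, 2 and 3 the count above was 1 each time and that below was 0, 1 and 1. Foxp2, a forkhead factor of V1 interneurons, gave 1.44 ± 0.16 (adjusted p = 0.0015), or 0.08 with an adjusted p of 0.725 on the linear scale. Of 4 sensory ganglion genes, 3 were above and 1 below; these were Isl1, Pou4f1 and the sodium channel gene Scn9a (0.59 ± 0.09, adjusted p = 0.0042, or 0.0669 without animal 1) against Prph, while Scn10a, Trpv1 and Avil were at the floor on all arrays.

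Immediate early and stress genes gave 4 above and 6 below of 19 (median -0.078), near the shares over all genes (23.9% and 22.9%), with 3 below without animal 1. Nr4a3, an orphan nuclear receptor, was at 7.75, 8.05 and 7.94 in the intermediate pieces, 4.66 to 5.27 dorsally and at 6.57 in all ventral pieces (2.11 ± 0.11, adjusted p = 0.000217). Fos was below both regions (-0.81 ± 0.10, adjusted p = 0.0019). Egr3 was at 7.82, 6.47 and 5.86 dorsally and at 2.15 to 2.16 in the 6 others (-2.27 ± 0.34, adjusted p = 0.00366). Those 6 values are at or near the floor, so the departure of Egr3 is only the distance between measured values. Egr1 gave -1.26 ± 0.20 (adjusted p = 0.00428, or 0.0574 without animal 1). Of 21 dystonia-associated genes, 6 were above and 3 below (median 0.069), where 23.9% and 22.9% of all genes lay. Klhl14 and Col6a3, a collagen gene (-2.40 ± 0.32, adjusted p = 0.00245), were the extremes, and the next were Hpca, the hippocalcin gene (0.81 ± 0.08, adjusted p = 0.00114), and Pnkd (0.65 ± 0.04, adjusted p = 0.000428, but 0.02 for its other probe set). Tor1a, the torsinA gene, gave 0.07 ± 0.05 and was not called.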

How the data were processed

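The deposited values, read as log2 expression per probe set, were used as the authors gave them; their summarisation and normalisation were not given in any source used. Per the labels' protocols, 500 ng of total RNA was labelled with an Affymetrix 3' IVT kit. Symbols came from the platform annotation, and 34741 probe sets matched the RefSeq gene table by Entrez number. Of the rest, 932 had several symbols and 9160 no entry.

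Limma 3.58.1 (R 4.3.3) was fitted to 9 arrays with a term per region and the animal as a block, leaving 4 residual degrees of freedom, with Benjamini-Hochberg adjustment at 0.05. The fit was also run on simulated data with set departures, and its outcome there is not reported here. The animal labels pair the pieces. Deviations of same-animal pieces correlated at -0.075 to 0.267 (mean 0.090, 9 pairs) and those of different animals at -0.197 to 0.177 (mean -0.045, 18 pairs). Deviations were taken from each region's mean over its 3 animals, which ties these means to each other. The different-animal pairs are therefore no independent comparison. P-values rest on 3 animals, whose number limits the precision. The linear midpoint used limma on per-animal values, which were made linear, averaged and returned to log2.

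Named genes were, by rule, the 10 above both and 8 below both regions, the 4 bent gradients of each kind and the 3 straight gradients in each direction with the largest effects, and up to 6 members per list. Further list members were named after their values were seen. Members and lists were chosen with earlier results of these data known. The deposited table marks no array's depth. Alternatives changed the block, filter, scaling, probe set, test and midpoint scale and left out animals. Leaving out single arrays was added after seeing the data. A planned filter at the 30th percentile lay at the floor and became an alternative.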

Additional observations from a re-analysis of the deposited data

How the results depend on the processing

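Of 116 named genes called, 106, 110 and 105 kept call and sign without animals 1, 2 and 3, and 97 did so in all 3 fits. On the linear scale 104 did, and with arrays centred on their medians 115 did. Leaving out 1 animal or 1 array gave 1410 to 2905 genes above the midpoint, 1335 to 2670 below it, 364 to 979 above both regions, 221 to 629 below both, 890 to 1629 between and above, 934 to 1750 between and below, and 440 to 693 on straight gradients. These fits hold fewer samples. All 20022 probe sets, in place of 1 per gene, gave 4099 above and 4220 below the midpoint, and 1335 above both and 984 below both. They gave 2420 between and above, 2889 between and below, and 930 straight, among more features tested. Without the animal as a block the counts were 2810 above and 2712 below the midpoint, 993 above both and 689 below both, 1616 and 1810 between, and 559 straight. Among named genes, the block changed the call of Slc6a9 only. Centring the arrays on their medians gave 3266 genes above and 2144 below the midpoint, 1230 above both regions and 443 below both. The departure of the median gene was then 0.042, against -0.0051 without centring.

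Signs turned on the linear scale for Gad1 (-0.21), Pou4f1 (-0.0064), Papss2 (-0.46), Kcnip2 (-0.85), Skor1 (-0.061), Ipcef1 (-0.75), Hoxb9 (-0.39), Kcnc2 (-0.97) and Olig1 (-0.066), since the linear midpoint is never below the log2 one. Other turns were in genes near 0, and their cause was not tested: with centring Hoxa10 (0.047), Pappa (0.042), Mbp (0.015) and Nfia (0.020), with quantile normalisation Olig1 (-0.0023), Pappa (0.020) and Kcnc2 (-0.0057), and with the most variable probe set Nfix (-0.056). Leaving out an animal or array gave -0.044 to 0.030 for Hoxa10, -0.044 to 0.043 for Kcnc2, -0.26 to 0.084 for Kcne1l, -0.0099 to 0.034 for Olig1, -0.076 to 0.057 for Pappa and -0.077 to 0.11 for Papss2. Values near the floor limit what dim genes can show.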
